A study of Mus musculus with 6 samples.

Results

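MHC class II molecules are heterodimers on the surface of antigen-presenting cells that show peptides from engulfed or self proteins to CD4+ T cells. Dendritic cells, macrophages and B cells are the classical presenting cells, and the transactivator CIITA switches the whole gene family on. Newly made dimers are filled by the invariant chain CD74, proteases trim that chain in endosomes, H2-DM exchanges its remnant for peptide, and H2-O restrains H2-DM. In healing tendon and bone, class II is a usual mark of resident and recruited presenting cells.

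Described here are 10 MHC class II genes of 32285 genes listed: the class II chains H2-Aa, H2-Ab1 and H2-Eb1, the invariant chain Cd74, the transactivator Ciita, the peptide exchanger H2-DM (H2-DMa, H2-DMb1, H2-DMb2) and its modulator H2-O (H2-Oa, H2-Ob). They were taken by symbol, and all 10 were detected. H2-Aa, H2-Ab1, H2-Eb1 and Cd74 together are called the 4 core genes below. H2-Ea was not analysed here, and C57BL/6 mice carry a class II haplotype that makes no I-E alpha chain.

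Cells were profiled by 10x 3′ single-cell RNA sequencing from the rotator cuff enthesis, where tendon inserts into bone, 7 days after injury and repair. The 6 libraries came from mice of 12 to 14 weeks: 3 from C57BL/6 wild-type controls and 3 from knockout mice that lack the inflammasome sensor Nlrp3 (Nlrp3-/-). Entheses were pooled within a library, and the labels do not say whether libraries shared animals, so p-values measure the spread between these libraries. The genotype label of Nlrp3-/- replicates 2 and 3 reads Nlrp4 and Nlrp5 knockout while their titles read Nlrp3 knockout, and the titles were followed. Nlrp3 itself had 7824 to 15965 UMIs (unique molecular identifiers, 1 per captured RNA molecule) in the wild-type libraries and 0 in each Nlrp3-/- library.

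The libraries held 97042713 to 134901999 UMIs, and 9150 to 14561 cells per library were kept, 69766 in all, at medians of 3122 to 6651 UMIs. Of these, 65994 cells fell in 12 types named from marker lists that hold no class II gene, and the members were left out when cells were clustered. Nlrp3-/- replicate 1 stood apart: 18145 of its 30840 filtered barcodes lay in clusters found almost only there and were set aside, against 263 to 739 in each other library. A further 2078 kept cells fell in clusters of low depth and mostly of 1 library when the rest were clustered again, 794 of them in mesenchymal clusters, and were left out of all types. Library pairs shared 19 to 47 cell barcodes. Xist was at 0 to 0.104 CPM (the count of a gene relative to all UMIs, scaled to 1000000) in the wild-type libraries and at 779.9 to 922.4 CPM in the Nlrp3-/- libraries, and the Y-linked Ddx3y was at 39.4 to 57.6 CPM and at 0, so sex and genotype cannot be told apart.

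The class II genes sit together in the major histocompatibility complex of chromosome 17 (mouse build GRCm38, GENCODE vM21), from H2-Oa at chr17:34092340-34095234 to H2-Eb1 at chr17:34305867-34316674. Ciita lies at chr16:10480059-10528418. Class II promoters share an upstream module in which the RFX complex binds the X box and NF-Y binds the Y box, an inverted CCAAT sequence, and CIITA docks on both without binding DNA itself. The windows below are shown because they carry the feature that joins these genes. Capitals mark AAC, in the core of the X box, and GATTGG, the Y box, read 5′ to 3′ on the coding strand.
H2-Oa, chr17:34092297-34092340, plus strand: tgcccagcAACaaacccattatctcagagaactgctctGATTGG
H2-DMb2, chr17:34145120-34145163, plus strand: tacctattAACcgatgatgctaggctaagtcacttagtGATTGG
H2-Ob, chr17:34238812-34238852, plus strand: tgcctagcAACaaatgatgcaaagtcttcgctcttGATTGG
H2-Aa, chr17:34287867-34287910, minus strand: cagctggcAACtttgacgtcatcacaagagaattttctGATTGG
H2-Eb1, chr17:34305770-34305812, plus strand: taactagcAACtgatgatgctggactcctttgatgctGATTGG

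These windows came from RefSeq promoters of build GRCm38.p6, each 250 bases before to 50 bases after an annotated start. The table matched 7 members with 8 entries, and H2-Ab1, Ciita and Cd74 had none. The pair of AAC and GATTGG was chosen after the sequences were seen and was searched on both strands with GATTGG starting 27 to 31 bases after the start of AAC. It stood in 6 of the 8 entries and in 364 of 32851 promoters in the table, or 1.11%. GATTGG alone stood in 7 of the 8 entries and in 16.1% of all promoters, and AACNNATG, a longer part of the X box, in 4 of the 8 and in 8.86%. The match of H2-DMb1 is not printed because all 44 of its bases lie in annotated exons. The Y box ended 39 to 86 bases before the RefSeq start. RefSeq starts can differ from those of GENCODE: the H2-Oa window ends on the first base of the GENCODE gene, and the H2-DMb2 window lies inside it (chr17:34143307-34151555). Both entries of H2-DMa lacked the pair, and a match or its absence describes letters only.

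With each cell type taken whole, conventional dendritic cells (cDC) held the highest mean level of 9 of the 10 genes, and B cells that of H2-Ob. In immature and mature B cells alone, the means of H2-DMb2 and H2-Oa lay above those of whole cDC, as given below. Levels are the UMIs of a gene summed over the cells of a type in a library, scaled to CPM by all UMIs of those cells. Such a sum does not tell fewer positive cells from less RNA per cell. The 4 core genes reached 42615, 51554 and 40976 CPM in cDC of wild-type replicates 1, 2 and 3, and 43865, 38466 and 47374 CPM in those of Nlrp3-/- replicates 1, 2 and 3. Macrophages held 6040, 6681 and 4032 CPM, then 3891, 4617 and 5484 CPM, in the same order. In every library cDC lay far above macrophages, with no overlap.

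**Figure D1:**
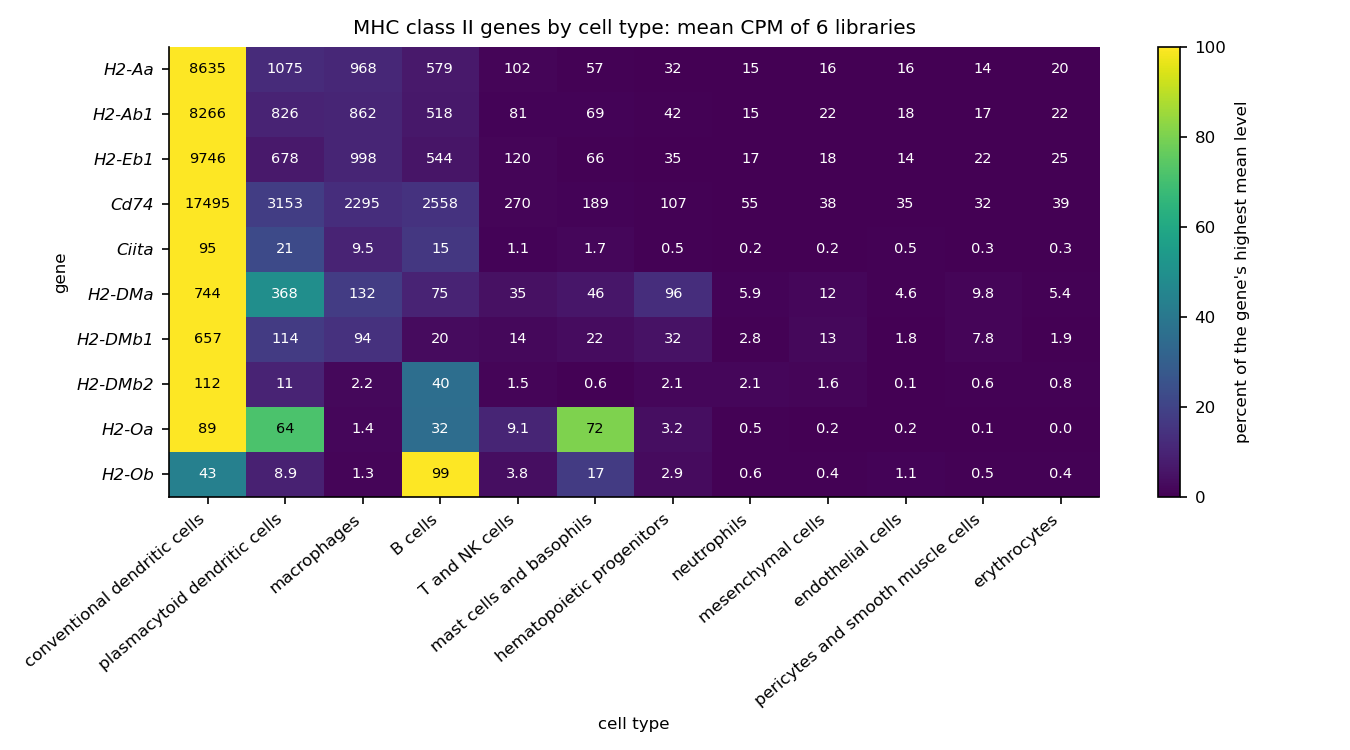
Mean level of each MHC class II gene in 12 cell types. Numbers are CPM averaged over 6 libraries and colours give the percent of the gene's own highest mean, so rows are comparable in pattern and not in height; cDC hold the row maximum for 9 genes and B cells for H2-Ob, and mast cells and basophils rest on as few as 10 cells in a library.

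B cells held 1608 to 9921 CPM of the 4 core genes and plasmacytoid dendritic cells (pDC), the interferon-producing dendritic lineage, 3758 to 8398 CPM. T and NK cells ranged from 118.8 to 1727 CPM, the highest in Nlrp3-/- replicate 3. Neutrophils (47.6 to 225.3 CPM), mesenchymal cells (30.3 to 128.2 CPM) and endothelial cells (73.8 to 104.2 CPM) lay lowest among the abundant types. Free RNA in barcodes of up to 100 UMIs carried 257.6 to 494.3 CPM of H2-Aa, and neutrophils held 0.0228 to 0.0539 of that level. Macrophages held 2.27 to 3.65 times the free-RNA level of H2-Aa, cDC 18.3 to 31 times and B cells 0.872 to 2.65 times.

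Macrophages, a type that here includes Ly6c2 Ccr2 monocytes, still contributed most of the class II RNA in the recovered cells. They gave 51.2% to 64.5% of the UMIs of the 4 core genes while giving 17.1% to 31.5% of all UMIs. Of the core UMIs of this type, the monocytes gave 21.8% to 44.7%. The cDC gave 28.6% to 39.6% of the core UMIs and 1.23% to 2.68% of all UMIs. B cells gave 2.56% to 11.2%.

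Below cDC, the class II chains and Cd74 lay closer together. H2-Aa averaged 8635 ± 958.3 CPM in cDC (SD, n = 6 libraries), 1075 ± 216.2 in pDC, 967.9 ± 178.5 in macrophages and 579.3 ± 370.5 in B cells. H2-Ab1 averaged 8266 ± 858.9, 825.6 ± 224.5, 862.4 ± 195.1 and 518.1 ± 307.5 CPM in those types, and H2-Eb1 averaged 9746 ± 1651, 678.5 ± 164.3, 998.5 ± 166.0 and 544.3 ± 320.6 CPM. Cd74, encoded on chromosome 18, averaged 17495 ± 3803 CPM in cDC, 3153 ± 1185 in pDC, 2558 ± 2016 in B cells and 2295 ± 741.2 in macrophages. Over 121 pairs of neighbours in the order of the 10 genes and of the sum of the 4 core genes, exact two-sided paired permutation tests over 6 libraries gave p of 0.0312 at the smallest, the lowest this design allows, and 0.13 after Benjamini-Hochberg adjustment. Even cDC above the next type in 6 of 6 libraries reached no lower, so this test cannot order neighbours, and the ranges and the fits over all genes describe the order.

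Between cell types the fits over all genes separated the members. Against macrophages, cDC were higher for 10 of 10 members by edgeR's quasi-likelihood test with the library as a block, where 21.6% of all genes tested were called higher. The log2 difference ran from 2.52 for H2-DMa to 6.01 for H2-Oa, with H2-Aa at 3.18 (SE 0.06, adjusted p = 1.94e-20) and Ciita at 3.3 (SE 0.12, adjusted p = 3.13e-16). The median log2 difference of the members was 3.3 and that of all genes tested -0.05. In macrophages H2-DMb2, H2-Oa and H2-Ob lay below their free-RNA levels, as given below. The types were built from the same cells, although not from these genes.

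B cells were higher than macrophages for 4 members and lower for 5, where 36.0% and 39.3% of all genes were called in those directions. The genes higher in B cells were H2-Ob by 5.91 (SE 0.24, adjusted p = 1.09e-10), H2-Oa by 4.11, H2-DMb2 by 3.71 and Ciita by 0.4 (adjusted p = 0.0375) on the log2 scale. The genes lower in B cells were H2-DMb1 at -2.62, H2-Eb1 at -1.28, H2-DMa at -1.19, H2-Aa at -1.16 and H2-Ab1 at -1.11. These sums hold all B cell stages. In immature and mature B cells alone, H2-Aa averaged 2330 CPM, H2-Eb1 2334, H2-Ab1 1814 and H2-DMa 272.2 CPM, above the macrophage means of 967.9, 998.5, 862.4 and 131.6 CPM, and H2-DMb1 64.0 CPM, below the 93.7 CPM of macrophages. Cd74 averaged 9526 CPM in these B cells and 2295 CPM in macrophages, and Ciita 53.3 and 9.46 CPM. This comparison was not tested. In the sums of all stages Cd74 gave -0.34 (SE 0.17, adjusted p = 0.0912) and was not called. For Ciita the call was lost without each of wild-type replicates 1, 2 and 3 and Nlrp3-/- replicate 1, where the log2 difference was 0.34, 0.31, 0.38 and 0.35. It was also lost in the Nlrp3-/- libraries alone (0.13, adjusted p = 0.611), without doublet removal (0.26), with no filter on low counts (0.36) and with DESeq2 (0.43).

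Against B cells, cDC were higher for 9 members, where 34.1% of all genes were called higher, and lower for H2-Ob, where 36.0% were called lower. H2-DMb1 showed the largest of these differences, 5.38 on the log2 scale (SE 0.17, adjusted p = 4.16e-11), and H2-Oa the smallest of those higher in cDC, 1.84 (SE 0.21, adjusted p = 3.84e-06). The H2-Ob level in cDC was 0.531 of that in B cells (log2 difference -0.91, SE 0.18, adjusted p = 0.000615). In immature and mature B cells alone, H2-DMb2 averaged 178.8 CPM and H2-Oa 112.5 CPM, above the cDC means of 111.9 and 89.2 CPM. The means of the other members kept the direction seen with all B cell stages. Differences between cDC and this subset were not tested.

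Ciita, the switch of the family, followed the core genes most closely among the other members. It averaged 94.8 ± 29.9 CPM in cDC, 21.3 ± 11.7 in pDC, 15.2 ± 4.11 in B cells and 9.46 ± 2.68 in macrophages, and 1.69 or below elsewhere. Across 70 sums of library and type, the correlation of its log2(CPM + 1) with the mean of the 4 core genes was 0.954. The same measure was 0.979 to 0.992 for each core gene, which is part of that mean, and 0.878 for H2-DMb1, 0.867 for H2-DMa, 0.824 for H2-DMb2, 0.73 for H2-Oa and 0.698 for H2-Ob. The sums share libraries and cells, so these are descriptions.

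Among 9689 genes outside the family with at least 20 CPM in some type, the most alike was Slamf9 (0.917), a receptor of the SLAM family, ahead of Pkib (0.875), an inhibitor of protein kinase A, and Cd72 (0.865), a B cell coreceptor. Scimp (0.861), an adaptor that binds class II signalling complexes, Ctss (0.859), the protease that trims the invariant chain, Fgd2 (0.842), Kmo (0.837), Ifi30 (0.825), the thiol reductase of antigen processing, Ly86 (0.819) and Irf5 (0.815) followed. Of these genes Slamf9, Fgd2, Ifi30 and Irf5 were highest in cDC, as the core genes were. Ctss was at 2471 CPM in macrophages and 1592 CPM in cDC, and Cd72 at 386.9 CPM in B cells and 229.0 CPM in cDC. Pkib was at 142.2 CPM in pDC and 109.8 CPM in cDC, Scimp at 96.5 and 36.0, Kmo at 110.3 and 53.7 and Ly86 at 285.7 and 151.5.

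The peptide exchanger H2-DM and its modulator H2-O did not follow the same order. H2-DMa averaged 743.7 ± 62.1 CPM in cDC, 367.8 ± 71.0 in pDC, 131.6 ± 23.3 in macrophages and 75 ± 37.2 in B cells. It also reached 96.3 ± 13.1 CPM in hematopoietic progenitors (83.0 to 121.3 CPM), where the 4 core genes held 91.8 to 475.9 CPM. Of these 2962 cells 1735 lay in a cluster with more monocyte markers (Ccr2, F13a1, Ly6c2) than progenitor markers (Mpo, Prtn3) among its leading genes, and Ly6c2 Ccr2 monocytes averaged 273.5 CPM of H2-DMa. H2-DMa made up 30.9% ± 9.56 of the member UMIs in progenitors and 3.16% ± 0.697 of those in free RNA. H2-DMb1, the usual beta chain of H2-DM, averaged 656.7 ± 108.9 CPM in cDC, 114.1 ± 33.9 in pDC, 93.7 ± 16.6 in macrophages and 32.4 ± 6.53 in progenitors.

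H2-DMb2, the other beta chain gene, was highest in cDC and B cells. It stood at 96.4, 126.8, 92.1, 118.4, 94.2 and 143.5 CPM in cDC (wild-type replicates 1 to 3, then Nlrp3-/- replicates 1 to 3). In B cells it was 47.4, 105.4, 14.6, 25, 23.6 and 26.1 CPM, and in macrophages 1.69 to 3.05 CPM. H2-DMb2 made up 63.6% ± 6.94 of H2-DMb UMIs in B cells, 14.7% ± 2.87 in cDC and 2.38% ± 0.54 in macrophages. Each pair of these types differed in 6 of 6 libraries (exact paired permutation test, p = 0.0312, the smallest possible, and 0.0421 adjusted over 27 pairs). The 2 beta chain genes are near-identical neighbours, and reads that fit both could be split or dropped by the counting. H2-DMb2 in macrophages lay at 0.376 to 0.743 of its free-RNA level, and H2-DMb1 in B cells at 0.316 to 0.605. The part of free RNA in these shares was not tested.

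H2-Ob, the beta chain of H2-O, stood highest in B cells. It was at 103.3, 210.8 and 72.5 CPM in B cells of the wild-type libraries and at 67.0, 68.9 and 69.3 CPM in those of the Nlrp3-/- libraries. In cDC it was 39.0 to 48.4 CPM and in macrophages 0.831 to 1.9 CPM. B cells gave 42.1% to 73.1% of the H2-Ob UMIs of a library. H2-Oa, its partner chain, averaged 89.2 ± 18.4 CPM in cDC, 64.1 ± 15.7 in pDC, 32.0 ± 24.2 in B cells and 1.42 ± 0.13 in macrophages. Mast cells and basophils held 32.3 to 104.8 CPM of H2-Oa, 5 to 28 UMIs a library, and H2-Oa made up 16.3% ± 7.16 of their member UMIs against 0.165% ± 0.0522 in free RNA.

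Set against H2-DM, H2-O ranged over the presenting cells from near parity to near absence. B cells held 97.3, 101.8 and 150.1 H2-O UMIs per 100 H2-DM UMIs in the wild-type libraries and 69.5, 95.4 and 86.3 in the Nlrp3-/- libraries. The pDC held 10.6 to 30.2, cDC 7.92 to 9.48, the cells named progenitors, mostly that mixed cluster, 3.24 to 6.16 and macrophages 0.956 to 1.6. In macrophages H2-Oa lay at 0.289 to 0.948 and H2-Ob at 0.154 to 0.343 of their free-RNA levels. The B cell ratios pool all stages. Pro-B and pre-B cells averaged 136.6 CPM of H2-Ob and 39.1 CPM of H2-DMa, and immature and mature B cells 304.8 and 272.2 CPM. The parts of free RNA and of stage make-up in these ratios were not tested. B cells, pDC, cDC and macrophages differed from each other in 6 of 6 libraries for each of the 6 pairs (exact paired permutation test, p = 0.0312 each, 0.0421 adjusted over 27 pairs). The separate chains did not all keep this order: per 100 H2-DM UMIs, H2-Ob lay higher in cDC than in pDC in 5 of 6 libraries (exact paired permutation test, adjusted p = 0.0974), H2-Ob lower in macrophages than in pDC in 5 of 6 (adjusted p = 0.0767) and H2-Oa higher in B cells than in pDC in 5 of 6 (adjusted p = 0.0767). Per 1000 core UMIs, Ciita gave 4.43 ± 1.53 UMIs in B cells and 2.18 ± 0.778 in cDC, and B cells lay above cDC in 6 of 6 libraries (exact paired permutation test, p = 0.0312, adjusted 0.0421). In cDC this ratio was 1.5, 1.5 and 1.53 in the wild-type libraries and 2.67, 3.34 and 2.51 in the Nlrp3-/- libraries, and in macrophages 1.46, 1.42 and 1.58 against 1.81, 2.9 and 2.12. The genotypes did not overlap in either type, and this difference was not tested.

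**Figure D2:**
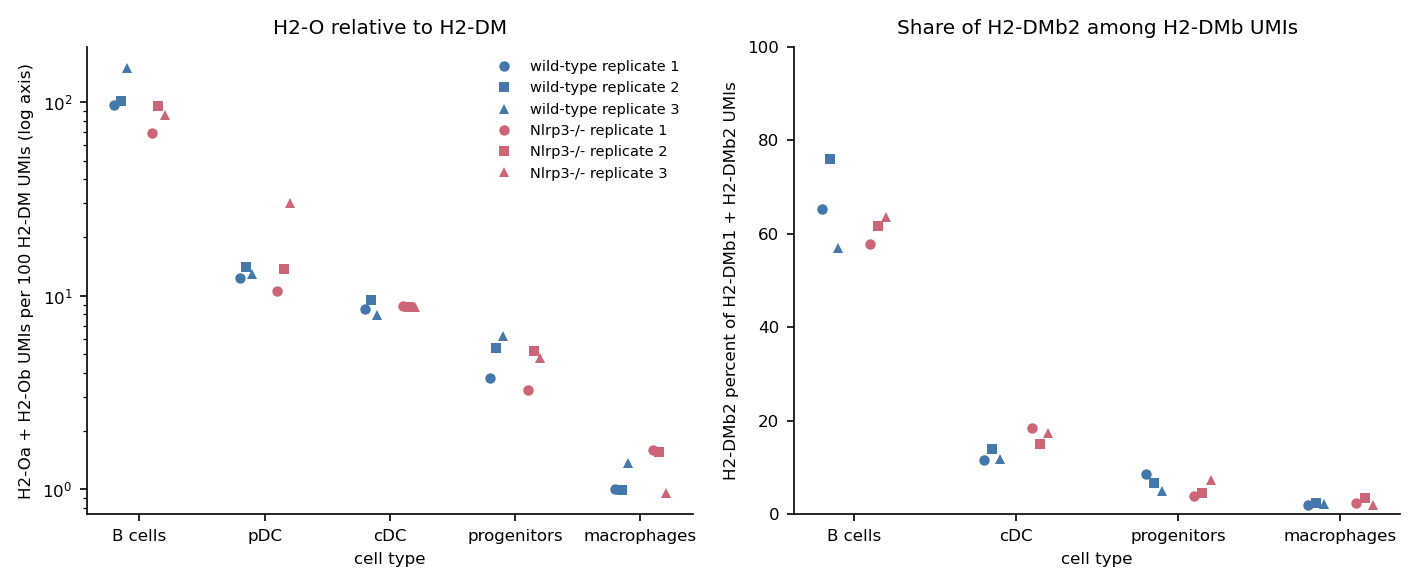
H2-O UMIs per 100 H2-DM UMIs on a log axis (left) and the percent of H2-DMb2 among H2-DMb1 and H2-DMb2 UMIs (right), 1 point per library and cell type, shaped by replicate and coloured by genotype. B cells lie between 69.5 and 150.1 H2-O UMIs per 100 H2-DM UMIs and macrophages between 0.956 and 1.6, with pDC, cDC and progenitors between them.

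Within macrophages class II was uneven from cell to cell. Each cell was thinned to 1000 UMIs, and cells below that depth were left out. Of the macrophages 49.1% to 64.6% then had no UMI of the 4 core genes, while the 90th percentile cell had 16 to 32. In cDC 0.629% to 15.1% had none and the median cell had 41 to 55 UMIs. In neutrophils, which should make little class II, 78.9% to 95% had none and at most 0.327% had 5 or more.

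**Figure D3:**
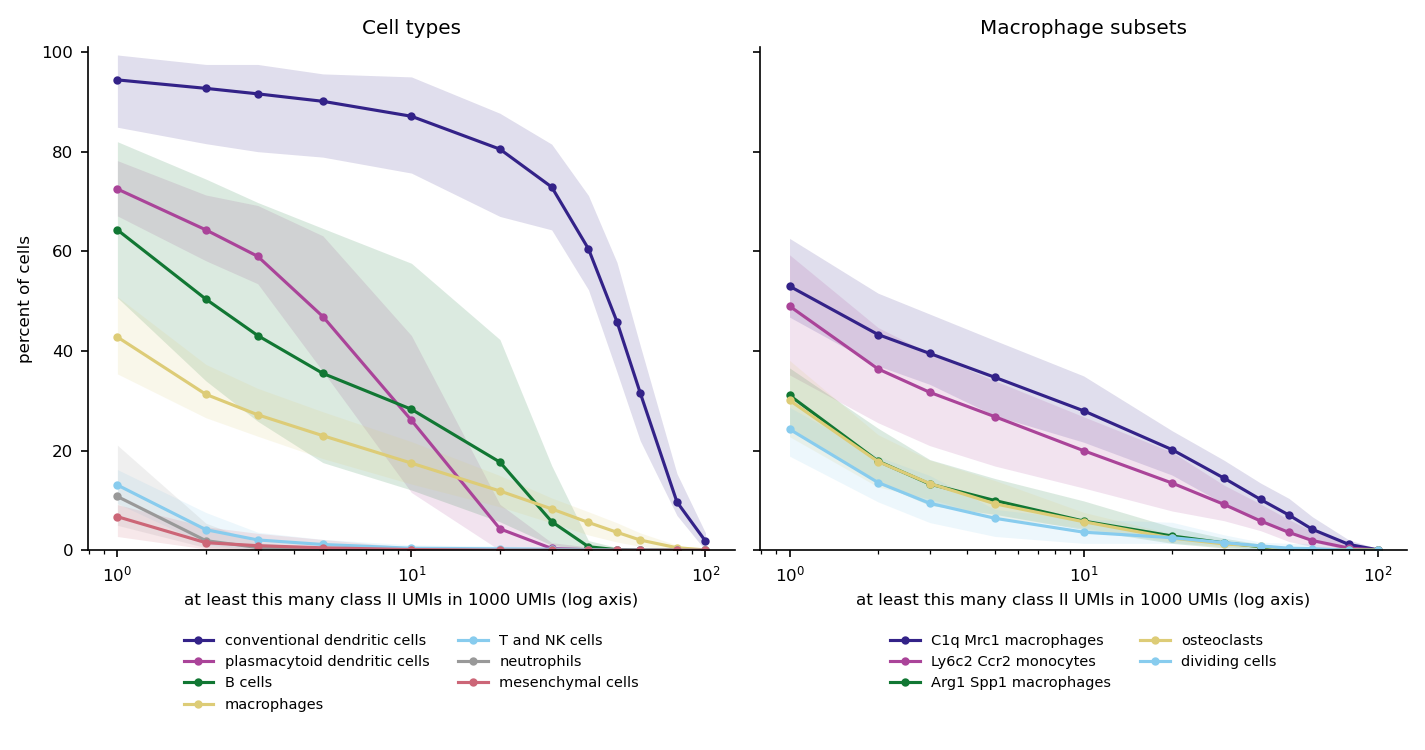
Percent of cells with at least the given number of UMIs of the 4 core genes after thinning to 1000 UMIs (log axis), for cell types (left) and macrophage subsets (right). Lines are means of 6 libraries and bands run from the lowest to the highest library; cDC keep high counts, and C1q Mrc1 macrophages and Ly6c2 Ccr2 monocytes lie above the other macrophage subsets.

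C1q Mrc1 macrophages and Ly6c2 Ccr2 monocytes carried most of it. In C1q Mrc1 macrophages the 4 core genes were at 10680, 12589 and 7739 CPM in the wild-type libraries and at 7192, 9657 and 10597 CPM in the Nlrp3-/- libraries. Ly6c2 Ccr2 monocytes held 4650 to 9644 CPM, Arg1 Spp1 macrophages 1514 to 2521, dividing macrophages 880.3 to 1832 and osteoclasts 1004 to 1574. The cluster of 760 dividing macrophages had the listed osteoclast markers Ctsk and Mmp9 among its leading genes. One osteoclast cluster (266 of 1613 cells, 73.7% of them from Nlrp3-/- replicate 1) had the neutrophil genes Camp, Ngp, S100a8 and S100a9 among its leading genes, so the fitted genotype comparison of osteoclasts is left out. The monocyte group also holds a cluster of 307 cells led by Ace, Ear2, Adgre4 and Treml4 and one of 65 cells led by Klrd1, Ifitm1, Timd4 and Cd209a, of which Ifitm1 and Cd209a are listed cDC2 markers, so its fitted genotype comparison is left out too. Of the cells named C1q Mrc1 macrophages, 2136 lay in a cluster with H2-Eb1 but not Mrc1 among its leading genes. Another 1732, 40.8% of them from Nlrp3-/- replicate 3, lay in one with Mrc1 and no class II gene among those. Class II levels were not compared between these clusters. The C1q Mrc1 macrophages as a whole gave 37.3% to 63.0% and the monocytes 21.8% to 44.7% of the macrophages' core UMIs. H2-DMa ordered these subsets otherwise: monocytes held 210.2 to 336.2 CPM of it and C1q Mrc1 macrophages 131.1 to 181.5 CPM, with no overlap.

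Among dendritic cells, cDC2, which prime CD4+ T cells, held 46231 to 58249 CPM of the 4 core genes, cDC1, which cross-present, 38293 to 46645 CPM and the migratory Ccr7 dendritic cells 36777 to 47433 CPM. One cluster within cDC2 (176 of 585 cells) was led by neutrophil genes, S100a8, S100a9, Ngp, Camp and Retnlg, with Cd7 the sole cDC2 marker among its leading genes. Ccr7 dendritic cells held 222.0 to 321.4 CPM of H2-DMa, against 621.5 to 886.1 CPM in cDC1 and 819.3 to 1020 CPM in cDC2. H2-DMb2 went the other way: 181.2 to 310.9 CPM in Ccr7 dendritic cells, 99.5 to 195.3 CPM in cDC2 and 26.9 to 72.6 CPM in cDC1. In both cases Ccr7 dendritic cells and cDC1 did not overlap, and these subsets had 12 to 79 cells in a library. H2-Ob was at 60.1 to 126.6 CPM in cDC1 and at 12 to 63 CPM in Ccr7 dendritic cells.

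Among B cells the level differed by stage. Immature and mature B cells held 20503, 21237 and 13671 CPM of the 4 core genes in the wild-type libraries and 14856, 10587 and 15171 CPM in the Nlrp3-/- libraries. Pro-B and pre-B cells, which have no complete antigen receptor, held 138.8 to 1129 CPM, and dividing B cells 421.4 to 862.4 CPM. H2-Ob and H2-Oa were nonetheless present before that stage: pro-B and pre-B cells held 78.3 to 245.5 CPM of H2-Ob and 45.5 to 109.3 CPM of H2-Oa, while H2-DMb2 had 0 UMIs there in all 6 libraries. Those sums rest on 11 to 89 cells a library.

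**Figure D4:**
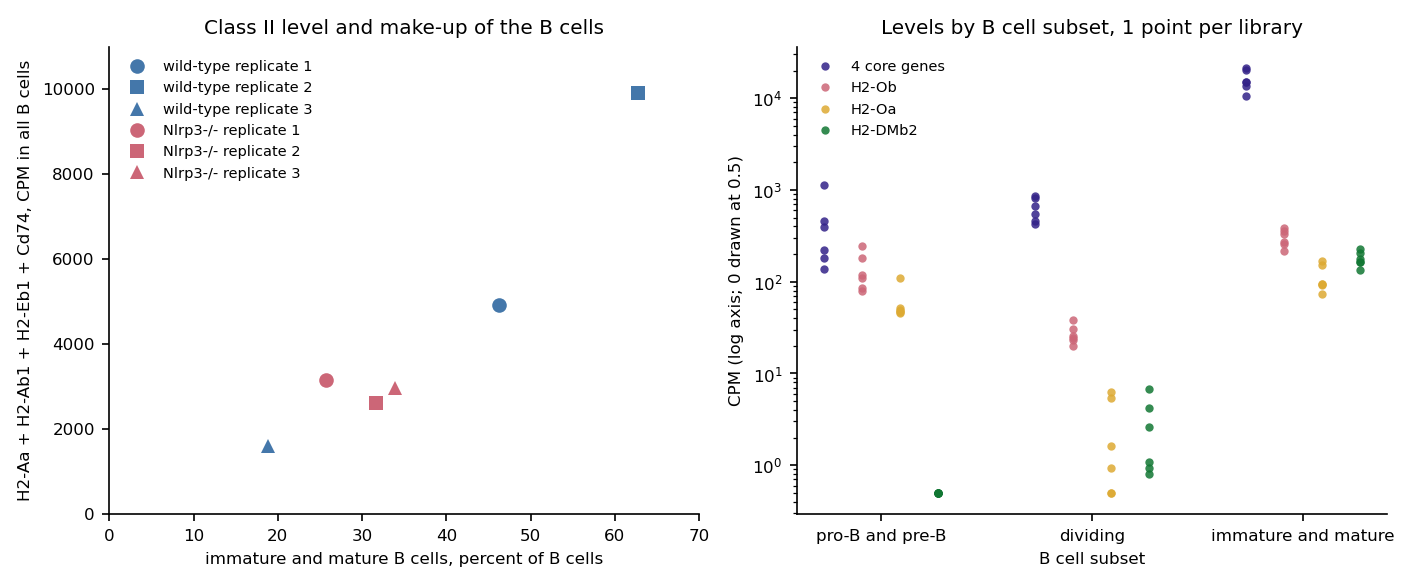
Left, level of the 4 core genes over all B cells (CPM) against the percent of B cells that are immature or mature, 1 point per library. Right, levels of the 4 core genes, H2-Ob, H2-Oa and H2-DMb2 by B cell subset (log axis, 0 drawn at 0.5); wild-type replicate 2 has the highest share, 62.7%, and the highest level, 9921 CPM, and wild-type replicate 3 the lowest of both.

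The make-up of the B cells varied between libraries. Immature and mature cells were 46.3%, 62.7% and 18.8% of the B cells in the wild-type libraries and 25.7%, 31.6% and 33.9% in the Nlrp3-/- libraries. Wild-type replicate 2, at 9921 CPM, had the highest share, and wild-type replicate 3, at 1608 CPM, the lowest. The Nlrp3-/- libraries did not keep that order, since replicate 1, with the lowest share of the 3, had 3165 CPM against 2606 and 2966 CPM. The cluster named plasma cells made up 8.56% and 3.54% of the B cells in Nlrp3-/- replicates 1 and 2 and 0% in the other 4 libraries, while an unnamed cluster of 61 cells led by Igha and Jchain is not counted in it. The part of this make-up in the B cell differences below was not tested beyond the subset values given there.

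The study asked how loss of Nlrp3 changes the cells of the healing enthesis. In macrophages, 0 of 10 members were called between genotypes by edgeR, where 0.435% of all genes were called, and 3 had an unadjusted p under 0.05, as did 19.2% of all genes. Cd74 was at 3112, 3341 and 1720 CPM in the wild-type libraries and at 1637, 1872 and 2089 CPM in the Nlrp3-/- libraries. Wild-type replicate 3 lay inside the Nlrp3-/- range, and the log2 fold change was -0.72 (SE 0.26, adjusted p = 0.212). H2-Eb1 stood at 929.5, 1082 and 812.4 CPM against 868.2, 1029 and 1270 CPM, with a log2 fold change of -0.0 (SE 0.18). H2-DMa gave -0.51 (SE 0.15, adjusted p = 0.166), H2-Ab1 -0.43 (SE 0.23) and Ciita 0.19 (SE 0.24). In the fit, which scales by TMM, 9 of the 10 fold changes were below 0, H2-Eb1 at -0.0 among them, with a median of -0.2 against 0.01 over all genes tested. By mean CPM 6 were lower and 4 higher in Nlrp3-/- macrophages: H2-Eb1 (941.4 and 1056 CPM), Ciita (8.23 and 10.7), H2-DMb2 (2.23 and 2.28) and H2-Ob (1.33 and 1.35).

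Other values moved with genotype in macrophages. Osteoclasts were 5.55% to 6.93% of wild-type and 8.58% to 12% of Nlrp3-/- macrophages, and dividing cells 2.05% to 3.83% and 4.8% to 5.43%, both subsets low in class II. The dividing share does not count a cluster of 508 cells named monocytes, with Birc5, Ccnb2 and Cenpa among its leading genes. The dividing cluster itself had the osteoclast markers Ctsk and Mmp9 among its leading genes. Whether the osteoclast and dividing shares are separate changes was not tested. Without the osteoclast cluster led partly by neutrophil genes, an alternative chosen after seeing the data, the osteoclast shares were 5.1% to 6.35% and 6.61% to 9.44%, and Nlrp3-/- replicate 1 fell from the highest to the lowest of its group. The 10 macrophage markers summed to 5967 to 6051 and 6244 to 7281 CPM, the 7 pericyte and smooth muscle markers to 24.9 to 29.8 and 34.4 to 46.1 CPM and the 5 Schwann cell markers to 0.617 to 0.901 and 1.63 to 2.41 CPM, with no gene of these lists at 0. Their part in these differences was not tested. Within C1q Mrc1 macrophages H2-DMa averaged 151.2 ± 26.7 CPM in the wild-type and 159.0 ± 10.3 CPM in the Nlrp3-/- libraries (n = 3 each).

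One library decided this count. Without wild-type replicate 3, 4 members were called lower in Nlrp3-/- macrophages: Cd74 at -0.99, H2-DMa at -0.67, H2-Ab1 at -0.66 and H2-DMb1 at -0.55 on the log2 scale. In that fit 19.2% of all genes were called. Without Nlrp3-/- replicate 1, the library that stood apart, 0 members were called and 0.272% of all genes. DESeq2's Wald test called 2 members, Cd74 and H2-DMa, and 4.01% of all genes.

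No member was called within the macrophage subsets given here, which are not free of mixed clusters. The C1q Mrc1 macrophages hold a cluster of 340 cells with Col6a3 and Col1a1 among its leading genes, at a median of 1282.5 UMIs. Of those cells 46.8% came from Nlrp3-/- replicate 1. The dividing macrophages are the cluster with Ctsk and Mmp9 among its leading genes. In C1q Mrc1 macrophages Ciita was at 7.21, 12.5 and 7.58 CPM in the wild-type libraries and at 12.5, 19.8 and 18.8 CPM in the Nlrp3-/- libraries (log2 fold change 0.72, SE 0.25, adjusted p = 0.133). Cd74 in the same cells was at 5166, 5926 and 2988 CPM against 2821, 3651 and 3829 CPM (log2 fold change -0.61, SE 0.26, adjusted p = 0.212). The genotypes did not overlap for Ciita in C1q Mrc1 macrophages, by a margin within the rounding of these values, and overlapped for Cd74. Of the members, 0 were called by edgeR in C1q Mrc1 macrophages (1.35% of all genes called, 2 members and 22.2% of all genes at an unadjusted p under 0.05), Arg1 Spp1 macrophages (0.147%, 0 members and 8.4%) and dividing macrophages (0.9%, 0 members and 18.1%), and DESeq2 was not run on subsets.

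In cDC, 0 of 10 members were called, where 0.833% of all genes were, and 4 had an unadjusted p under 0.05, as did 19.3% of all genes. Ciita was at 64.1, 77.6 and 62.9 CPM in the wild-type libraries and at 117.1, 128.5 and 118.9 CPM in the Nlrp3-/- libraries, with no overlap. Its log2 fold change was 0.61 (SE 0.17) with an adjusted p of 0.0944, and over the alternatives the adjusted p lay between 0.0575 and 0.374. Cd74, one of the genes that CIITA drives, was at 19796, 24095 and 14892 CPM against 15721, 13948 and 16519 CPM (log2 fold change -0.56, SE 0.21, adjusted p = 0.161).

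H2-DMb1 in cDC was at 742.4, 784.9 and 682.0 CPM in the wild-type libraries and at 520.0, 531.5 and 679.6 CPM in the Nlrp3-/- libraries, again without overlap, though by a narrow margin. Its log2 fold change was -0.56 (SE 0.17, adjusted p = 0.112). The chain genes were closer to 0: H2-Aa at -0.13 (SE 0.16), H2-Ab1 at -0.26 (SE 0.17) and H2-Eb1 at 0.14 (SE 0.17). By mean CPM H2-Aa went the other way, at 8415 CPM in the wild-type and 8854 CPM in the Nlrp3-/- libraries. In the fits its sign stayed negative under all 17 alternatives, with RLE in place of TMM among them. By mean CPM 5 members were lower and 5 higher in Nlrp3-/- cDC, against 8 lower in the fit. H2-Eb2, a class II beta chain gene outside the 10, was at 15.9 to 27.9 CPM and at 33.4 to 49.9 CPM, with a log2 fold change of 0.71 (SE 0.28, adjusted p = 0.183).

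Other values moved with genotype in these cells. The 10 neutrophil markers summed to 1057 to 3709 CPM in wild-type cDC and to 394.1 to 1015 CPM in Nlrp3-/- cDC, and the 10 mesenchymal markers to 221.8 to 387.8 and 410.5 to 866.7 CPM, with no gene of either list at 0. The 7 pericyte and smooth muscle markers summed to 12.4 to 19.0 and 22.0 to 25.2 CPM, and the 5 Schwann cell markers to 0 and 0.703 to 25.2 CPM. Their part in these differences was not tested. Without wild-type replicate 3, Cd74, H2-DMb1 and H2-Oa were called lower, at -0.77, -0.66 and -0.71, where 9.89% of all genes were called. Without Nlrp3-/- replicate 1, 0 members and 0.432% of all genes were called. DESeq2 called H2-DMb1 alone among the members, and 6.82% of the 3298 genes it tested, where edgeR tested 7924. Because of the cluster led by neutrophil genes, the fitted genotype comparison of cDC2 is left out.

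**Figure D5:**
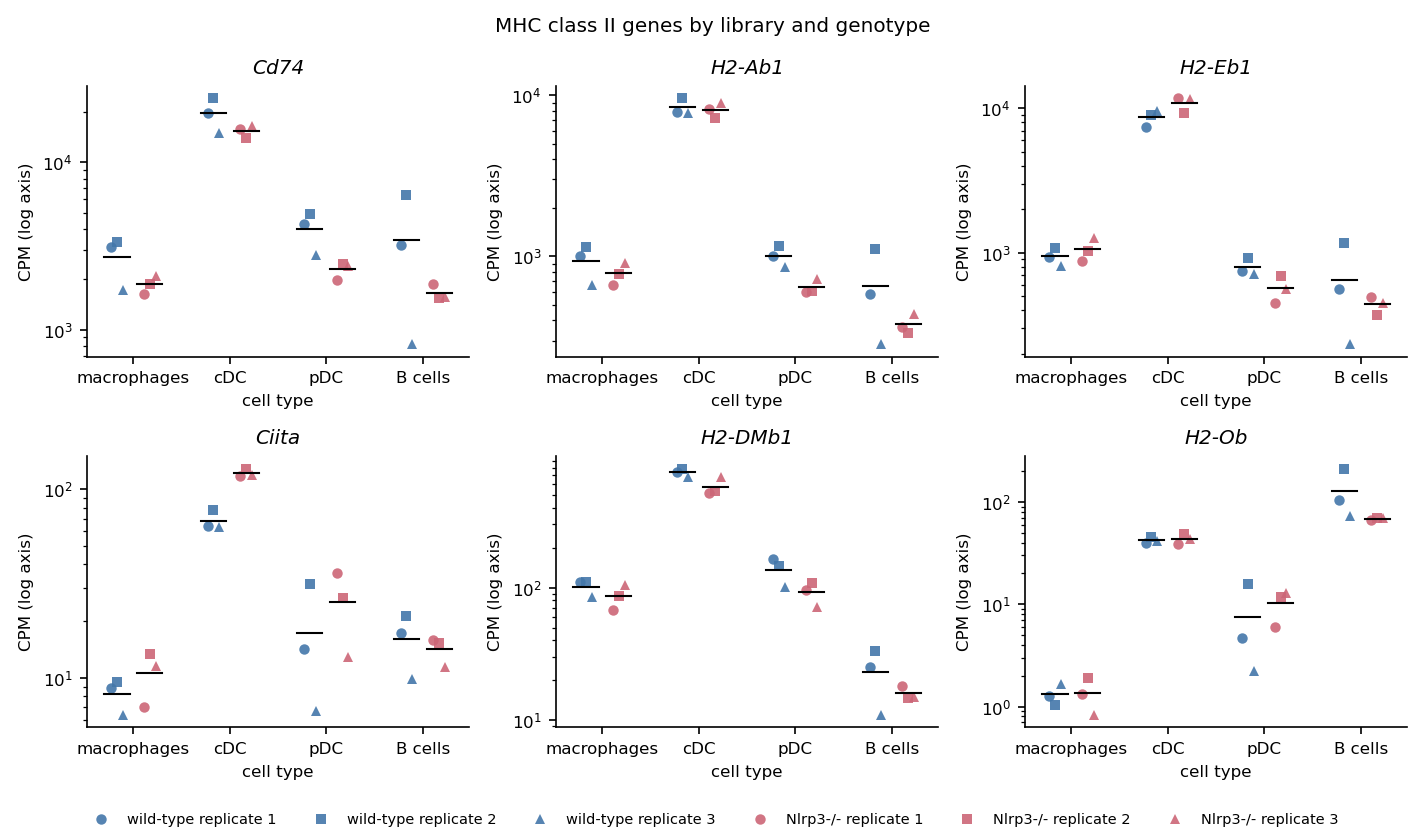
Levels of 6 MHC class II genes in CPM (log axes) in macrophages, cDC, pDC and B cells; points are libraries, shaped by replicate and coloured by genotype, and bars are group means of 3. In cDC the Ciita points of the genotypes do not overlap, and wild-type replicate 3 lies among or near the Nlrp3-/- libraries for Cd74 in macrophages.

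In pDC, Cd74 was the single member called of 7 tested, where 0.698% of all genes were. It was at 4302, 4943 and 2796 CPM in the wild-type libraries and at 1975, 2486 and 2418 CPM in the Nlrp3-/- libraries, with no overlap. Its log2 fold change was -0.92 (SE 0.21, adjusted p = 0.0426). H2-Ab1 (1003, 1158 and 860.6 against 602.2, 605.7 and 724.0 CPM) also did not overlap, with a log2 fold change of -0.76 (SE 0.19, adjusted p = 0.0814), and H2-Eb1 gave -0.57 (SE 0.2, adjusted p = 0.224). Of the 7 members tested 5 had an unadjusted p under 0.05, as did 13.9% of all genes. All 7 fold changes were below 0, with a median of -0.57 against 0.03 over all genes tested.

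The call of Cd74 in pDC was not stable, although its log2 fold change stayed between -1.16 and -0.75 when 1 library was left out. It was lost without any of wild-type replicates 1 and 2 and Nlrp3-/- replicates 1, 2 and 3, where the adjusted p was 0.25, 0.2, 0.18, 0.246 and 0.154, and with the replicate number as a block (0.0914). At Leiden resolution 2.0 the fold change of Cd74 moved to -0.51 (adjusted p = 0.34) and that of H2-Ab1 to -0.21, and without doublet removal Cd74 gave -0.78 (adjusted p = 0.315). Without wild-type replicate 3, 4 members were called, where 7.47% of all genes were, and without Nlrp3-/- replicate 1 there were 0, where 0.36% were. DESeq2 called 2 members and 5.81% of the 1015 genes it tested, where edgeR tested 4871. A library held as few as 39 pDC. The neutrophil markers summed to 2152 to 7261 CPM in wild-type pDC and to 932.7 to 1957 CPM in Nlrp3-/- pDC, the mesenchymal markers to 191.6 to 424.7 and 445.6 to 1015 CPM, and the 9 endothelial markers, Tie1 at 0 among them, to 127.7 to 228.0 and 228.8 to 288.7 CPM. Their part in the result was not tested.

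In B cells, 0 of 10 members were called by edgeR, where 0.266% of all genes were, and 0 by DESeq2, where 0.652% were. Of the members 3 had an unadjusted p under 0.05, as did 8.23% of all genes, and all 10 fold changes were negative. Cd74 was at 3186, 6356 and 819.1 CPM in the wild-type libraries and at 1872, 1540 and 1575 CPM in the Nlrp3-/- libraries, so the wild-type spread covered the Nlrp3-/- values (log2 fold change -1.13, SE 0.53, adjusted p = 0.609). H2-Ob, whose ranges did not overlap, gave -0.97 (SE 0.34, adjusted p = 0.495), and H2-Oa -1.24 (SE 0.51, adjusted p = 0.597). Without wild-type replicate 3, 7 members were called, where 2.78% of all genes were, and without Nlrp3-/- replicate 1 there were 0, where 0.216% were. Without wild-type replicate 2, H2-Eb1, Ciita and H2-DMa turned to 0.11, 0.04 and 0.13.

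Restricted to immature and mature B cells, the differences shrank for Cd74, from -1.13 to -0.76 (SE 0.24, adjusted p = 0.157), and H2-Ob gave -0.7 (SE 0.18, adjusted p = 0.0916). H2-Ob was at 333.6, 386.7 and 359.4 CPM in the wild-type libraries and at 272.8, 215.9 and 260.7 CPM in the Nlrp3-/- libraries, with no overlap. No member was called there, where 0.493% of all genes were, and 5 had an unadjusted p under 0.05, as did 14.4% of all genes. All 10 fold changes were again negative there, with a median of -0.5 against 0.01 over all genes. In dividing B cells 3 of the 6 fold changes were above 0 and 3 below, and 0 of 6 were called, where 0.262% of all genes were, and 1 had an unadjusted p under 0.05, as did 8.22% of all genes. That was H2-DMa, at 10.9, 16.7 and 15.4 CPM in the wild-type libraries and 23.6, 26.3 and 27.3 CPM in the Nlrp3-/- libraries (log2 fold change 0.73, SE 0.29, adjusted p = 0.547), with no overlap. Ciita averaged 6.23 and 10.3 CPM in dividing B cells, from 3 to 28 UMIs a library, also with no overlap, and H2-Oa, with 15 UMIs in all, 4.45 and 0.448 CPM, lower without overlap. The 4 core genes averaged 605.6 and 649.3 CPM in dividing B cells and 252.1 and 591.0 CPM in pro-B and pre-B cells, with overlap in both.

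In 5 other types, 0 members were called by edgeR. The shares of all genes called were 0.511% in T and NK cells, 0.689% in endothelial cells, 0.115% in mesenchymal cells, 0.471% in neutrophils and 0.496% in pericytes and smooth muscle cells. Of the members tested there, 0 of 6, 1 of 5, 0 of 7, 1 of 7 and 0 of 6 had an unadjusted p under 0.05, in the same order, as did 11.7%, 21.7%, 12.8%, 17.2% and 16.3% of all genes. DESeq2 called 0 members in each. It called 8.63%, 4.65%, 1.89%, 3.0% and 2.32% of the 1251, 8260, 14845, 11628 and 5857 genes it tested. The fit for progenitors is left out because of their mixed cluster. The genotype difference was also compared between types. Its difference was called for 0 members between cDC and macrophages, where 0.168% of all genes were called, and for 0 members between B cells and macrophages and between cDC and B cells, where 0.0% were. At an unadjusted p under 0.05 there were 0, 0 and 2 members, and 8.16%, 4.66% and 5.51% of all genes, and DESeq2 was not run on these differences. For Ciita the difference between cDC and B cells was 0.84 on the log2 scale (SE 0.28, adjusted p = 0.905).

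Shares of positive cells gave no more than the sums. At 1000 UMIs a cell, 46.4% ± 4.95 of wild-type and 39.1% ± 3.79 of Nlrp3-/- macrophages (SD, n = 3 each) had at least 1 UMI of the 4 core genes (exact permutation test, two-sided, p = 0.2). Without thinning the shares were 71.0% ± 4.03 and 65.1% ± 9.06. In neutrophils, taken as a type low in class II, the thinned shares were 13.7% and 7.93%, at median depths of 1886 and 3230 UMIs against 4771.5 and 5280 in macrophages. These medians cover all cells, while the thinned shares leave out cells below 1000 UMIs. Left out were 2273 wild-type and 407 Nlrp3-/- neutrophils, and 431 and 369 macrophages. In cDC the thinned shares were 95% ± 1.86 and 93.8% ± 7.81 (exact permutation test, p = 0.9) and in B cells 67.5% ± 15.8 and 61.2% ± 4.87 (p = 0.5). In pDC the thinned shares with at least 1 UMI were 74.0% ± 6.08 and 71.0% ± 2.97, with overlap (exact permutation test, p = 0.4). With at least 5 UMIs they were 56.3% ± 8.27 and 37.5% ± 1.73, with no overlap (exact permutation test, p = 0.1, the smallest that 3 against 3 allows). Adjusted over 14 tests, no p fell below 0.875.

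The rest of the presentation pathway was read from 8 lists of related genes. In macrophages 0 of 64 listed genes tested were called by edgeR (0.435% of all genes), with 12 at an unadjusted p under 0.05, as had 19.2% of all genes, and 7 called by DESeq2 (4.01% of all genes). In cDC 1 of 56 was called (0.833% of all genes), with 13 at an unadjusted p under 0.05, as had 19.3% of all genes. The call was Psmb10, an immunoproteasome subunit that serves class I presentation, at -0.89 (SE 0.19, adjusted p = 0.0496). In B cells 0 of 56 were called (0.266% of all genes), with 7 at an unadjusted p under 0.05, as had 8.23% of all genes, and 0 by DESeq2 (0.652%). The single call in cDC was lost without any of the 5 libraries other than wild-type replicate 3, and without that library 11 were called, where 9.89% of all genes were.

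By list, the 14 genes of class I presentation had a median log2 fold change of -0.29 in macrophages, with 10 lower, -0.22 in cDC, with 10 lower, and -0.09 in B cells, with 8 lower, against 0.01, 0.03 and 0.01 over all genes. The 10 processing genes, which include Ctss and Ifi30, had medians of 0.08, -0.04 and 0.12. The class II regulators, 18 tested in macrophages and B cells and 17 in cDC, had 0.01, -0.02 and 0.08, and the interferon-gamma response outside class II had 0.01, -0.14 and -0.04 over 12, 7 and 9 genes. Costimulation had -0.09, 0.6 and -0.46 over 6, 7 and 4 genes, and surface turnover 0.04, -0.17 and -0.73 over 3, 2 and 2 genes. T cell partners had -0.05 over 2 genes in macrophages, and none was tested in cDC or B cells. H2-Eb2, the other class II gene tested, gave -0.0, 0.71 and -0.48.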

How the data were processed

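The authors deposited raw UMI counts per gene and barcode for each of 6 libraries, before cell calling or normalization; the submitters' processing notes name Cell Ranger 2.1.1 and mm10, and the matrix headers name Cell Ranger version 4, so the version is uncertain. Genotype groups came from the titles, and 0 columns of other samples were left unused. Barcodes with at least 500 UMIs, 200 genes and at most 10% mitochondrial UMIs that differed from free RNA (barcodes up to 100 UMIs; false discovery rate 0.01) were kept, cells with the highest doublet scores were removed (0.8% per 1000 cells), and the rest were clustered without class II genes (scanpy 1.11.5, 2000 variable genes, 30 components, 15 neighbours, Leiden resolution 1.0). A cluster was set aside when a single library gave it more than 75% of its cells and the median UMI count of those cells lay below that of their library; this was done before doublets were removed and again after it. Types were named from fixed marker lists and mean cells like that type; subsets were named in the same way, and cells of unnamed subclusters stayed in their type.

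UMIs were summed per library and type and tested with edgeR 4.0.16 (quasi-likelihood, TMM, filterByExpr, R 4.3.3), where no library had fewer than 20 cells of the type, adjusted by Benjamini-Hochberg over all genes tested at 0.05. On simulated data with 200 changed genes this found 68.0% of 2-fold and 97.0% of 4-fold changes between genotypes in macrophages (12696 genes), 51.0% and 99.0% in cDC (7746) and 40.6% and 97.9% in B cells (9590). Single values used exact permutation tests. Depth was 97042713 to 134901999 UMIs a library, and counting error weighs most on genes with few UMIs. Members, lists and tests were chosen with earlier results of these data known. The named genes are all members, H2-Eb2 and Nlrp3, listed genes past the threshold (at most 3 each way per list and type) and the 10 genes most like the core genes with at least 20 CPM in some type. Other genes named with values, such as Xist and Ddx3y, serve as checks. Same-numbered libraries did not deviate together (correlations -0.53 to 0.147 over 30 pairs), so numbers were not used as pairs.

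Alternatives were DESeq2 1.42.0, RLE in place of TMM, testing all genes whatever their counts, the replicate number as a block, leaving out each library, other cell filters and clusterings, single genotypes for the type contrasts, and thinning to 500 UMIs or none. Shares of genes called by DESeq2 are over the genes it tested. In some types these were fewer than edgeR tested, such as 3298 against 7924 in cDC, so the 2 shares are not comparable.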

Additional observations from a re-analysis of the deposited data

How the results depend on the processing

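The counts of 10, 9 and 10 members called between cell types stayed at 10, 8 to 9 and 10 under all 18 alternatives, although between B cells and macrophages the call changed for Ciita in 8 of them and for Cd74 in 2. In the main fits 21.6% of all genes were called higher in cDC than in macrophages. Between B cells and macrophages 36.0% were called higher and 39.3% lower, and between cDC and B cells 34.1% and 36.0%, so most genes differ in these 2 contrasts. Counts of members called between genotypes moved more. With no filter on low counts they were 6 in B cells, 2 in T and NK cells, 2 in cDC, 1 in neutrophils and 2 in pDC, where 1.68%, 1.32%, 3.16%, 3.0% and 1.09% of all genes were called. With DESeq2 there were 1 in cDC, 2 in macrophages and 2 in pDC, where 6.82%, 4.01% and 5.81% of the genes it tested were called. In pDC the count was 0 at Leiden resolution 2.0 and with no doublet removal, and 2 with a mitochondrial limit of 5% and with clusters of 1 library kept (1.7% and 0.537% of all genes). Leaving out 1 library gave 0 to 7 members in B cells, 0 to 3 in cDC, 0 to 4 in macrophages and 0 to 4 in pDC. The highest counts came without wild-type replicate 3, where 2.78%, 9.89%, 19.2% and 7.47% of all genes were called. For the difference of genotype effects between cDC and B cells it gave 0 to 1 (H2-Eb1 without wild-type replicate 3, at 1.1, SE 0.19, edgeR adjusted p = 0.0365, where 0.0873% of all genes were called). Listed presentation genes called were 3 and 7 in macrophages (1.9% and 4.01% of all genes) and 7 and 5 in cDC (3.16% and 6.82%) with no filter and with DESeq2, 7 in B cells with no filter (1.68%), and in cDC 0 with class II genes kept in clustering, no ambient test, a mitochondrial limit of 5% or clusters of 1 library kept, and 2 with no doublet removal (1.69%). Leaving out 1 library gave 0 to 12, 0 to 11 and, in B cells, 0 to 5, each at most without wild-type replicate 3, where 19.2%, 9.89% and 2.78% of all genes were called. The causes were not tested.

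The replicate block, for numbers that do not pair the libraries, gave 0 members in pDC (Cd74 adjusted p = 0.0914) and 0 listed genes in cDC, and changed no other count of calls.

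Small fold changes turned sign: cDC H2-DMb2 to 0.01 with class II genes kept and 0.02 with no doublet removal; macrophage H2-Eb1 to 0.02 (resolution 2.0), 0.01 (class II kept), 0.03 (minimum of 1000 UMIs), 0.05 (mitochondrial 5%) and 0.02 (clusters of 1 library kept), H2-DMb2 to 0.06 (1000 UMIs), H2-Oa to 0.12, 0.07, 0.39 and 0.32 (resolution, class II kept, 1000 UMIs, mitochondrial 5%) and H2-Ob to 0.08 (resolution); pDC H2-Aa, H2-Eb1 and H2-Oa to 0.06, 0.39 and 0.1 (resolution). Leaving out 1 library gave ranges of -1.06 to 0.11 (H2-Eb1), -0.55 to 0.04 (Ciita) and -0.91 to 0.13 (H2-DMa) in B cells, -0.22 to 0.16 (H2-DMb2) in cDC, -0.15 to 0.13 (H2-Eb1), -0.37 to 0.01 (H2-DMb2) and -0.42 to 0.14 (H2-Ob) in macrophages and -0.42 to 0.03 (H2-Oa) in pDC. The genotype difference in percent of cells with at least 1 UMI ranged from -4.0 to 3.25 in cDC, -14.7 to 0.933 in B cells and -0.842 to 2.25 in mesenchymal cells, where it was -7.37 without thinning; with at least 5 UMIs it ranged from -5.35 to 3.0 in cDC and -0.184 to 0.874 in mesenchymal cells.

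Depth limits the low members: H2-Oa and H2-Ob in macrophages lie near 1 CPM, and their genotype fold changes there carry SEs of 0.25 and 0.34. With 3 libraries a group, permutation p cannot fall below 0.1.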

Other observations

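Among mesenchymal cells, cells with several class II UMIs were most frequent in 1 library, while the summed level of the 4 core genes was not (30.3 to 128.2 CPM). At 1000 UMIs a cell, 2.17% of the mesenchymal cells of Nlrp3-/- replicate 1 had at least 5 UMIs of the 4 core genes, against 0 to 0.38% in the other 5 libraries. That library is the one with 18145 barcodes set aside. In T and NK cells, Nlrp3-/- replicate 3 held 1727 CPM of the 4 core genes, and the other libraries 118.8 to 567.7 CPM.

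Unnamed subclusters held 30.6% to 38.2% of the core UMIs of cDC, 6.62% to 14.8% of those of macrophages and 6.4% to 15% of those of B cells, so the named subsets do not account for all class II RNA of a type. Dividing cDC ranged from 2577 to 18356 CPM of the 4 core genes over 6 to 36 cells a library. Of these 119 cells 76 lay in a cluster with 0 listed dividing markers among its leading genes. Those genes included the listed pDC markers Ly6d and Cox6a2 and the listed progenitor marker Prtn3, so the name is uncertain. The cluster named plasma cells, from Nlrp3-/- replicates 1 and 2, held 2803 and 2023 CPM, with 22 and 62 cells.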
